A study of Mus musculus with 8 samples.

Results

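The 9 genes described here encode costimulatory receptors of T cells and their close relatives: Cd28 and Icos of the CD28 family, and Cd27, Tnfrsf4 (OX40), Tnfrsf9 (4-1BB), Tnfrsf18 (GITR), Tnfrsf1b (TNFR2), Tnfrsf25 (DR3) and Fas of the TNF receptor superfamily. They were taken by name from the deposited tables, where all 9 were found among 25078 gene rows, and all 9 were kept by the filter on low counts that left 12428 genes. Messenger RNA was measured on day 6 after allogeneic hematopoietic cell transplantation (HCT) in donor T cells taken from recipient spleens. The donors were C57BL/6 mice, either wild type (WT) or lacking STAT3 in T cells (STAT3KO), in which a Cre recombinase under the Cd4 promoter deletes a floxed part of Stat3. In every group the recipients were lethally irradiated WT BALB/c mice that also received T cell-depleted bone marrow from WT C57BL/6 donors. The authors report severe acute graft-versus-host disease after WT T cells and only mild, reversible disease after STAT3KO T cells. Genotype of the donor T cells and disease of the recipient therefore cannot be told apart in these comparisons. CD4 and CD8 T cells of the donor type were sorted separately, giving 4 groups of 2 libraries, each a pool of cells from several recipients. Cre under the Cd4 promoter acts in thymocytes before they become CD4 or CD8 T cells, so Stat3 is deleted in both, and any difference that arose during their development is part of the comparison. The methods name no Cre or floxed allele for the WT donors, and the age of the mice is not given in the sources used here.

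Costimulatory receptors set how far a T cell that sees its antigen divides, survives and gains effector function. CD28 and ICOS bind ligands of the B7 family and recruit phosphoinositide 3-kinase (PI3K) to their short tails. The receptors of the TNF family bind trimeric ligands and recruit TRAF adaptors that lead to NF-kB. DR3 and Fas carry death domains, through which Fas recruits FADD and caspase-8 and kills the cell. Alloreactive T cells express many of these receptors after HCT, and whether loss of STAT3 was accompanied by a change in their transcripts is the question of the comparisons below.

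The libraries held between 20171396 and 23282757 counts, and the fewest counts of a receptor gene in a library were 91, for Tnfrsf25. Stat3 fell to 32.4% of WT in STAT3KO CD4 T cells and to 30.3% in STAT3KO CD8 T cells (log2 fold changes -1.63 and -1.72, adjusted edgeR p 0.000753 and 0.00536), so the labels of genotype held in all 8 libraries. Cd4 lay between 1361 and 1602 CPM in the CD4 libraries and between 1.04 and 8.16 CPM in the CD8 libraries, and Cd8a between 819 and 984 CPM in the CD8 libraries and at most 15.9955 CPM in the CD4 libraries. CPM are counts per 1000000 of a library total after TMM scaling, and groups were called different at an adjusted edgeR p under 0.05 over all genes. Among markers of other cells (CPM by column total), the B cell genes Ms4a1 and Cd79a reached at most 0.147 and 0.348 CPM and the 4 hemoglobin genes were at 0 in every library. The myeloid genes Csf1r and Lyz2 lay between 0.558 and 18.7 CPM and between 0.786 and 8.10 CPM. The summed B cell markers were 107 and 96.1 CPM in WT CD4, 149 and 170 CPM in STAT3KO CD4 and 37.3 to 54.6 CPM in the CD8 libraries, led by Cd22, and of the 2 B cell markers tested Cd79b was called higher in STAT3KO CD4 T cells (0.892 and 1.27 against 2.06 and 2.46 CPM). The part of these cells in the results below was not tested.

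In CD4 T cells, Icos, Tnfrsf25 and Fas were lower in STAT3KO than in WT, Tnfrsf1b was higher, and the other 5 receptor genes did not pass the test. Among all genes tested, 5.08% were called lower and 6.54% higher in this comparison, so 3 of 9 receptor genes lower and 1 of 9 higher stand beside these shares. In CD8 T cells, only Tnfrsf25 passed the test, and it was lower (1 of 9, against 0.732% of all genes called lower and 1.34% called higher). With the replicate number as a block, 3 were called there, beside 2258 of all 12428 genes. The median log2 fold change of the 9 genes was -0.01 for CD4 and -0.24 for CD8 T cells, beside 0.02 and -0.01 over all genes tested. The edgeR interaction test called none of the 9 genes and none of all genes (0.0%) for a difference between the STAT3KO effects in CD8 and CD4 T cells. At an unadjusted p under 0.05 this test passed 982 genes (7.9%), 3 of them receptor genes (Tnfrsf1b, Tnfrsf25 and Fas). The fit with the replicate number as a block called 403 genes (3.24%) for this difference, with Tnfrsf1b and Fas among them. DESeq2 called 175 genes (1.41%) with Tnfrsf1b and Fas among them, and the edgeR likelihood-ratio test called 137 (1.1%) with Fas among them.

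**Figure D1:**
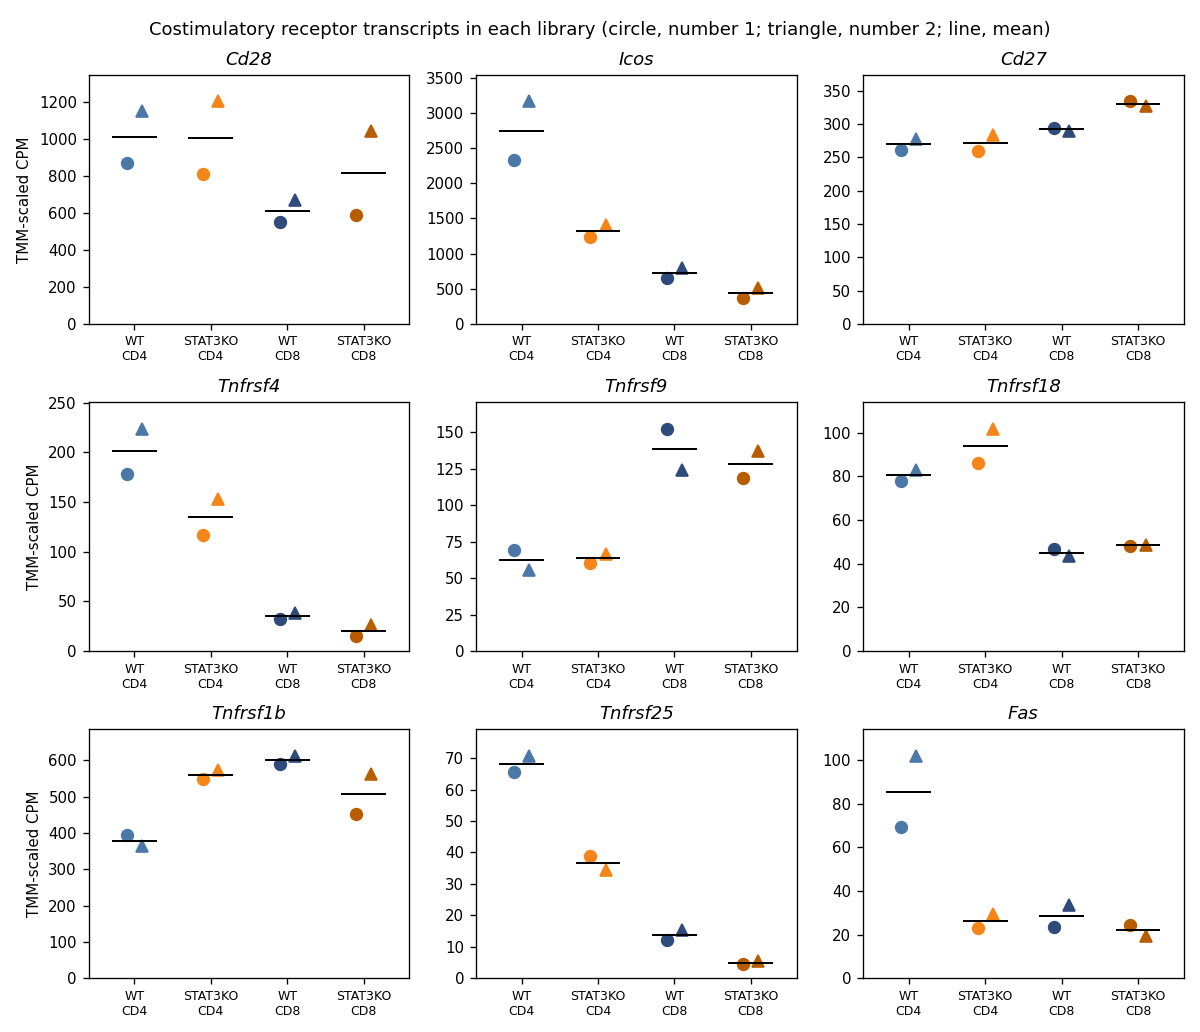
TMM-scaled CPM (linear axis from 0) of the 9 receptor genes in the 8 libraries, with circles for libraries numbered 1, triangles for libraries numbered 2 and a line at the mean of each group. Icos, Tnfrsf25 and Fas are lower in both STAT3KO CD4 libraries than in both WT CD4 libraries, and Tnfrsf1b is higher there and lower in both STAT3KO CD8 libraries than in both WT CD8 libraries.

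Icos (mm10 chromosome 1, 60977914 to 61000321, plus strand) is induced on activated T cells and supports follicular helper cells through ICOS ligand. Icos was at 2326 and 3162 CPM in WT CD4 T cells and at 1235 and 1399 CPM in STAT3KO CD4 T cells. Its CD8 values were 646 and 797 CPM for WT and 373 and 507 CPM for STAT3KO. Neither pair of groups overlapped, and STAT3KO was the lower one in both cell types, as it was without overlap for 3112 of the 12428 genes in CD4 and 24.8% of them in CD8 T cells. In CD4 T cells the transcript fell to 48.0% of WT (log2 fold change -1.06 with SE 0.20, adjusted edgeR p 0.0153). The CD8 difference was -0.71 on the log2 scale (SE 0.20) and was not called (adjusted edgeR p 0.109), although it was called with the replicate number as a block (-0.72, adjusted p 0.000878) and by DESeq2 (-0.72, adjusted p 0.00936). The interaction was 0.35 on the log2 scale (SE 0.28, adjusted edgeR p 0.930). The CD4 call was lost without WT CD4 replicate 2 (-0.83, adjusted p 0.0700), STAT3KO CD4 replicate 1 (-0.998, adjusted p 0.104) or STAT3KO CD4 replicate 2 (-1.15, adjusted p 0.0737). In bulk RNA of sorted cells, fewer cells that express a gene and less RNA per cell cannot be told apart. Of the regulatory T cell markers, which include Foxp3 and Ctla4, 0 of 6 were called in either STAT3KO comparison, 0 passed an unadjusted edgeR p under 0.05 and DESeq2 called 0. Their summed level was 1827 and 2195 CPM in WT CD4 and 1490 and 2048 CPM in STAT3KO CD4 libraries, with Foxp3 at 12.1 and 10.7 against 12.5 and 15.9 CPM.

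Cd28 (chromosome 1, 60746388 to 60773359, plus strand) encodes the receptor for CD80 and CD86 that naive T cells need for full activation. Its level was 870 and 1149 CPM in WT CD4 and 810 and 1202 CPM in STAT3KO CD4 libraries. The CD8 values were 551 and 672 CPM in WT and 589 and 1041 CPM in STAT3KO libraries. The genotypes overlapped in both cell types, with a log2 difference of -0.01 (SE 0.29, adjusted edgeR p 0.993) in CD4 and 0.41 (SE 0.30, adjusted p 0.510) in CD8 T cells. Cd28, Ctla4 and Icos lie next to each other on the chromosome, with 135665 bases between Cd28 and Ctla4 and 62081 bases between Ctla4 and Icos. Ctla4, the inhibitory receptor for the ligands of CD28, was not called either (log2 fold changes -0.23 and 0.10 for CD4 and CD8 T cells, adjusted edgeR p 0.629 and 0.881). Of these 3 neighbours, only Icos was called in STAT3KO CD4 T cells.

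Among the TNF receptors, Fas (chromosome 19, 34290659 to 34327770, plus strand) had the largest difference between WT and STAT3KO CD4 T cells. Fas lay at 69.3 and 102 CPM in WT CD4 and at 23.2 and 29.3 CPM in STAT3KO CD4 libraries. The CD8 libraries had it at 23.6 and 33.5 CPM in WT and at 24.6 and 19.2 CPM in STAT3KO libraries. The STAT3KO CD4 libraries thus lay well below WT CD4 and in the range of the CD8 libraries, where the genotypes overlapped. Fas fell to 30.7% of WT in CD4 T cells (log2 fold change -1.70 with SE 0.25, adjusted edgeR p 0.00628), a call lost without STAT3KO CD4 replicate 1 (-1.57, adjusted p 0.0563). The log2 difference in CD8 T cells was -0.38 (SE 0.25, adjusted edgeR p 0.470), made up of 0.06 between the libraries numbered 1 and -0.80 between those numbered 2. The interaction was 1.32 on the log2 scale (SE 0.35, unadjusted p 0.00598, adjusted edgeR p 0.312). It was called with the replicate number as a block (1.34, adjusted p 0.0214), by DESeq2 (1.33, adjusted p 0.0269) and by the likelihood-ratio test (1.32, adjusted p 0.0411).

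Tnfrsf25 (chromosome 4, 152115934 to 152120119, plus strand) encodes DR3, the receptor for the TNF family ligand TL1A. Its transcript stood at 65.6 and 70.7 CPM in WT CD4, at 38.7 and 34.5 CPM in STAT3KO CD4, at 12.0 and 15.2 CPM in WT CD8 and at 4.39 and 5.59 CPM in STAT3KO CD8 libraries. No group overlapped another. It was the only receptor gene called in both cell types, falling to 53.7% of WT in CD4 (log2 fold change -0.90 with SE 0.15, adjusted edgeR p 0.0110) and to 36.7% in CD8 T cells (-1.45, SE 0.17, adjusted p 0.0144). The interaction was -0.55 on the log2 scale (SE 0.23, unadjusted p 0.0460, adjusted edgeR p 0.619). The CD4 call was lost without WT CD4 replicate 2 (adjusted p 0.0560), STAT3KO CD4 replicate 1 (0.0545) or STAT3KO CD4 replicate 2 (0.0892), at log2 fold changes between -1.01 and -0.82. The CD8 call was lost without WT CD8 replicate 2 (adjusted p 0.0889), STAT3KO CD8 replicate 1 (0.0892) or STAT3KO CD8 replicate 2 (0.0853) and with the 4 CD8 libraries alone (0.0713), at values between -1.65 and -1.27. Tnfsf15, which encodes TL1A, was at 0.0902 to 1.37 CPM in all libraries.

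Tnfrsf1b (chromosome 4, 145212368 to 145246870, minus strand) encodes TNFR2, the TNF receptor without a death domain that is prominent on activated and regulatory T cells. In CD4 T cells it was at 393 and 365 CPM in WT and at 548 and 573 CPM in STAT3KO libraries. For CD8 T cells it was at 588 and 612 CPM in WT and at 451 and 562 CPM in STAT3KO libraries. The groups did not overlap in either cell type, with STAT3KO above WT in CD4 and below WT in CD8 T cells, which held for 28.5% and 24.8% of all genes, each taken alone. The rise in CD4 T cells was 1.48-fold (log2 fold change 0.56 with SE 0.13, adjusted edgeR p 0.0283), and the CD8 difference was not called (-0.24, SE 0.13, adjusted p 0.346). The interaction was -0.81 on the log2 scale (SE 0.18, unadjusted p 0.00213, adjusted edgeR p 0.240). With the replicate number as a block it was called (-0.81, adjusted p 0.0150), as it was by DESeq2 (-0.80, adjusted p 0.00390). The CD4 call was lost without either WT CD4 replicate (adjusted p 0.0613 without replicate 1 and 0.138 without replicate 2), either STAT3KO CD4 replicate (0.124 and 0.152), or WT CD8 replicate 1 (0.0511), and with the 4 CD4 libraries alone (0.0518), at log2 fold changes between 0.50 and 0.59. Myeloid cells also express TNFR2: the summed macrophage and monocyte markers were 53.5 and 59.4 CPM in WT CD4 and 92.2 and 128 CPM in STAT3KO CD4 libraries. Itgam led these sums (36.7 and 22.9 against 78.9 and 85.7 CPM), and it lay between 96.1 and 134 CPM in the sorted CD8 libraries. Of the 6 markers only Itgam was called higher, while the block called 3. Between CD4 libraries of the same number, Cd68 was lower in STAT3KO, and Csf1r and Cd14 were higher. Adgre1 and Lyz2 were lower in replicate 1 and higher in replicate 2. Single markers thus moved in both directions, while the sums were higher in STAT3KO CD4 libraries. The part of myeloid cells in the Tnfrsf1b result was not tested.

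Tnfrsf4 (chromosome 4, 156013695 to 156016589, plus strand) encodes OX40, which sustains the survival of activated T cells. It was at 178 and 224 CPM in WT CD4 and at 116 and 153 CPM in STAT3KO CD4 libraries. Its CD8 values were 32.2 and 38.5 CPM for WT and 14.9 and 25.9 CPM for STAT3KO. STAT3KO lay below WT without overlap in both cell types, but neither difference was called (-0.58 on the log2 scale, SE 0.25, adjusted edgeR p 0.192 in CD4, and -0.79, SE 0.27, adjusted p 0.161 in CD8 T cells). With the replicate number as a block both were called, at -0.58 (adjusted p 0.00277) and -0.82 (adjusted p 0.00214), and DESeq2 called the CD8 difference (-0.80, adjusted p 0.0324).

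The other 3 TNF receptors did not pass the test in either cell type. Cd27 (chromosome 6, 125232622 to 125237027, minus strand), the receptor for CD70 on naive and memory cells, was at 261 and 278 CPM in WT CD4, 260 and 284 CPM in STAT3KO CD4, 294 and 290 CPM in WT CD8 and 334 and 328 CPM in STAT3KO CD8 libraries. Its log2 differences were 0.01 (SE 0.10, adjusted edgeR p 0.954) and 0.18 (SE 0.10, adjusted p 0.393). Tnfrsf18 (chromosome 4, 156026322 to 156028894, plus strand), which encodes GITR, was at 78.1 and 82.7 CPM in WT CD4, 85.9 and 102 CPM in STAT3KO CD4, 46.6 and 43.4 CPM in WT CD8 and 48.1 and 48.5 CPM in STAT3KO CD8 libraries. Its log2 differences were 0.22 (SE 0.11, adjusted edgeR p 0.249) and 0.10 (SE 0.11, adjusted p 0.698). The annotation places 414 exon bases of Tnfrsf18 under an antisense gene, Gm16008, and whether the counting used the strand is not stated, so the 2 cannot be told apart there. Tnfrsf9 (chromosome 4, 150920155 to 150946102, plus strand), which encodes 4-1BB, was at 68.9 and 55.5 CPM in WT CD4, 60.3 and 66.7 CPM in STAT3KO CD4, 152 and 124 CPM in WT CD8 and 118 and 137 CPM in STAT3KO CD8 libraries. Its log2 differences were 0.03 (SE 0.15, adjusted edgeR p 0.927) and -0.11 (SE 0.15, adjusted p 0.764), with overlapping genotypes in both cell types.

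More receptor genes were called between the CD8 and CD4 lineages than between the genotypes. In WT T cells, 5 receptor genes were called lower in CD8 than in CD4 T cells and 2 higher, beside 11.6% and 12.2% of all genes tested. Tnfrsf4 (17.6% of the CD4 level), Tnfrsf25 (20.0%), Icos (26.3%), Fas (33.3%) and Tnfrsf18 (56.0%) were lower, with adjusted edgeR p between 0.000145 and 0.00336. Tnfrsf9 was 2.22-fold and Tnfrsf1b 1.58-fold higher in CD8 T cells (adjusted edgeR p 0.00171 and 0.00789). In STAT3KO T cells, 4 were called lower and 1 higher, beside 6.67% and 5.84% of all genes. Tnfrsf25 (13.7% of the CD4 level), Tnfrsf4 (15.1%), Icos (33.4%) and Tnfrsf18 (51.5%) were again lower, and Tnfrsf9 was 2.01-fold higher, a call lost without STAT3KO CD4 replicate 1 (log2 fold change 0.94, adjusted edgeR p 0.0624). Fas and Tnfrsf1b were called between the lineages in WT, at -1.59 (SE 0.25) and 0.66 (SE 0.13) on the log2 scale, but not in STAT3KO T cells, at -0.26 (SE 0.25, adjusted p 0.559) and -0.14 (SE 0.13, adjusted p 0.519). The difference between these lineage effects is the interaction given above for each gene, and these comparisons share their libraries with those between genotypes. With the replicate number as a block, Cd28 was also lower in CD8 than in CD4 WT T cells (-0.71, adjusted p 0.000730, against -0.72 and 0.121 without it), and Cd27 was higher in CD8 than in CD4 STAT3KO T cells (0.28, adjusted p 0.0203, against 0.28 and 0.116).

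**Figure D2:**
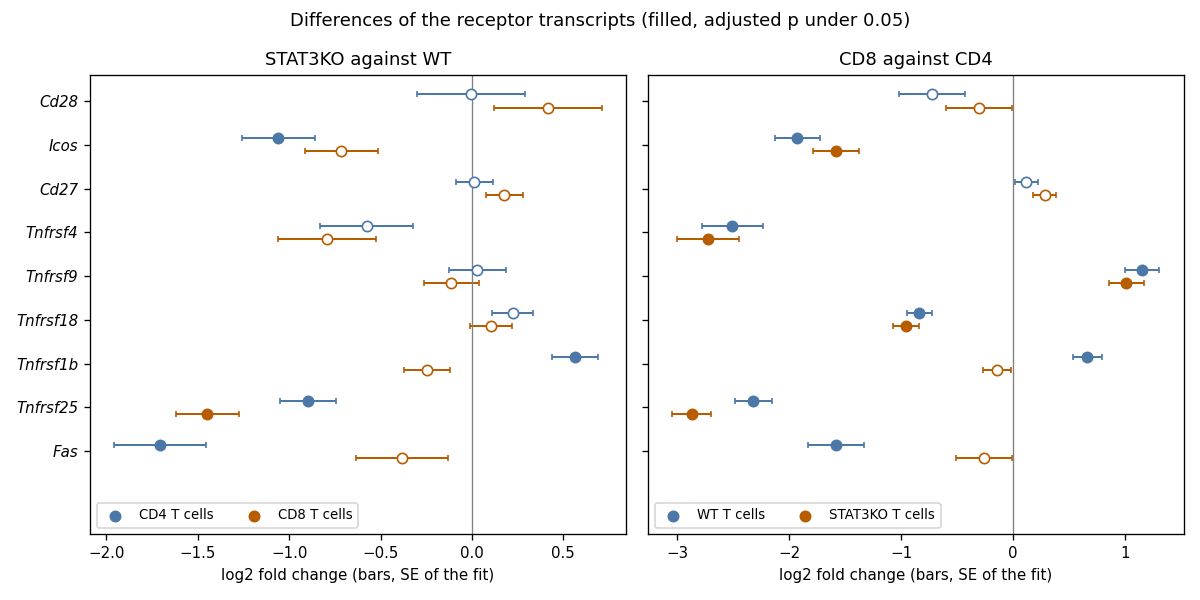
Log2 fold changes with the SE of the fit for STAT3KO against WT (left, in CD4 and CD8 T cells) and CD8 against CD4 (right, in WT and STAT3KO T cells), with filled points for an adjusted edgeR p under 0.05. Tnfrsf25 is filled in all 4 comparisons, while Fas and Tnfrsf1b are filled in CD4 T cells on the left and in WT T cells on the right.

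Levels of different genes were compared by the deposited RPKM, which take exon length into account. In WT CD4 T cells Icos led with 844 ± 191 RPKM (SD, n = 2), followed by Cd28 (234 ± 48.4), Tnfrsf4 (174 ± 29.9) and Cd27 (171 ± 9.56). Tnfrsf18 (78.1 ± 4.09), Tnfrsf1b (77.1 ± 3.22), Fas (47.7 ± 13.4), Tnfrsf25 (35.8 ± 2.30) and Tnfrsf9 (25.2 and 30.8 RPKM in the 2 libraries) came after them. The libraries of neighbours in this order overlapped for Tnfrsf4 and Cd27 and for Tnfrsf18 and Tnfrsf1b. In STAT3KO CD4 T cells Icos (397 ± 31.4 RPKM) and Cd28 (228 ± 60.9) still led, Tnfrsf1b (112 ± 2.42) overlapped Tnfrsf4 (115 ± 21.2), and Fas was last (14.3 ± 2.23). In WT CD8 T cells the order opened with Icos (220 ± 30.1), Cd27 (184 ± 3.86), Cd28 (140 ± 18.0) and Tnfrsf1b (121 ± 2.02), with no overlap between neighbours. In STAT3KO CD8 T cells Cd27 (207 ± 5.22), Cd28 (185 ± 70.8) and Icos (133 ± 27.1) came in that order, with overlap between Cd27 and Cd28 and between Cd28 and Icos. Tnfrsf25 was last in both CD8 groups (7.10 ± 1.11 and 2.58 ± 0.41 RPKM). Icos alone made up 47.8% and 51.6% of the summed receptor RPKM in the WT CD4 libraries and 34.9% and 33.0% in the STAT3KO CD4 libraries. Its share of the CD8 sums was 24.99% and 28.2% for WT and 16.8% and 18.0% for STAT3KO. The sum itself was 1485 and 1897 RPKM in WT CD4 and 1075 and 1269 RPKM in STAT3KO CD4 libraries, and between 679 and 853 RPKM in the CD8 libraries.

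**Figure D3:**
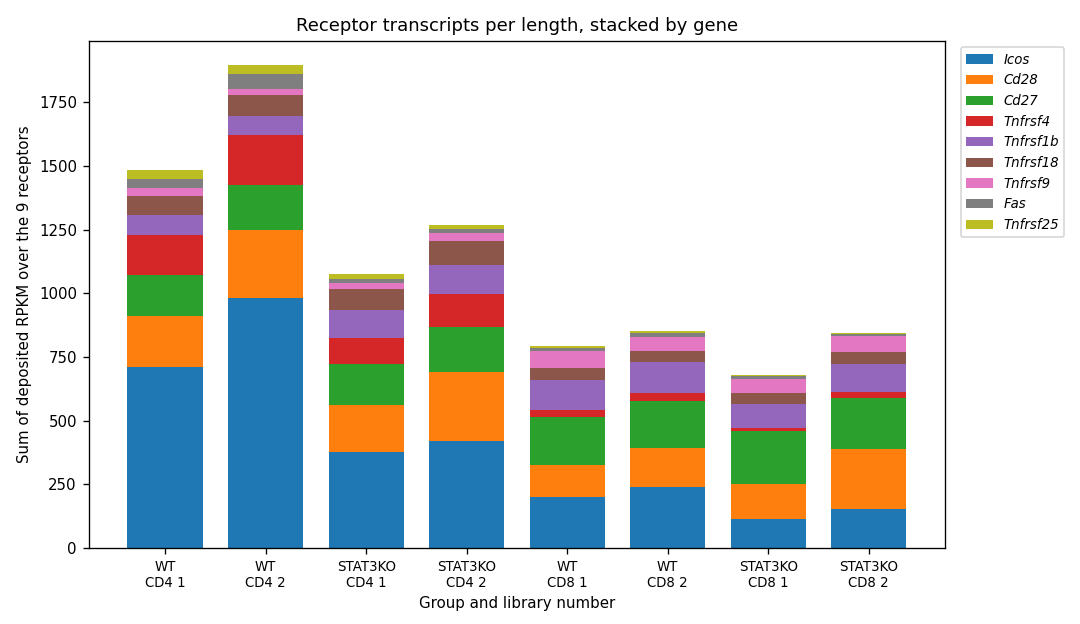
Deposited RPKM of the 9 receptor genes stacked in each library (linear axis from 0). The Icos segment shrinks from 709 and 980 RPKM in WT CD4 to 375 and 419 RPKM in STAT3KO CD4 libraries, and the totals of the CD8 libraries lie below those of the CD4 libraries.

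Of the genes listed for ligands of these receptors, 3 of 10 tested were higher in STAT3KO CD4 T cells and none lower, beside 6.54% and 5.08% of all genes. Their median log2 fold change was 0.57. Cd86, a ligand of CD28 and CTLA-4, was at 8.18 and 10.2 CPM in WT CD4 T cells and at 32.9 and 46.9 CPM without STAT3 (log2 fold change 2.12 with SE 0.24, adjusted edgeR p 0.00241). Fasl, the ligand of Fas, rose from 45.5 and 40.8 to 83.4 and 142 CPM (1.39, SE 0.24, adjusted p 0.0114), and Cd80 from 14.9 and 15.4 to 31.9 and 25.2 CPM (0.91, SE 0.21, adjusted p 0.0317). Fasl was thus higher in the same libraries in which Fas was lower. Cd86 remained called with each library left out, while the call of Fasl was lost without WT CD4 replicate 2 (1.30, adjusted p 0.0689) and that of Cd80 without any of the 4 CD4 libraries (adjusted p 0.0727 to 0.198) or on log2(RPKM + 1) (0.0542). Antigen-presenting cells also express Cd80 and Cd86. The summed dendritic cell markers were 16.6 and 15.2 CPM in WT CD4 and 14.5 and 16.7 CPM in STAT3KO CD4 libraries. Itgax led these sums (15.7 and 14.2 against 13.1 and 14.9 CPM), and it lay between 160 and 272 CPM in the sorted CD8 libraries. Zbtb46 was at 0.892 and 0.926 against 1.33 and 1.78 CPM, and Flt3, Xcr1 and Siglech reached at most 0.0859 CPM. The part of dendritic cells, or of the macrophage and monocyte markers given above, in the Cd80 and Cd86 values was not tested. With the replicate number as a block 6 ligands were called in CD4 T cells, beside 3747 of all 12428 genes. Among CD8 T cells edgeR called 0 of the 10 ligands, 5 passed an unadjusted p under 0.05, DESeq2 called 1, the block called 3, and the median was 0.34. Of all 12428 genes, edgeR called 257 there, DESeq2 845 and the block 2258.

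Downstream of the receptors, 1 of 29 adaptors and kinases was higher and 1 lower in STAT3KO CD4 T cells, beside 6.54% and 5.08% of all genes. Pik3r1, a regulatory subunit of PI3K, rose from 193 and 168 to 345 and 349 CPM (log2 fold change 0.94 with SE 0.11, adjusted edgeR p 0.00275). Pik3cd, the catalytic subunit p110δ, fell from 577 and 569 to 423 and 412 CPM (-0.46, SE 0.10, adjusted p 0.0216). Pik3r1 was also the only gene of this list called in CD8 T cells, from 319 and 298 to 455 and 477 CPM (0.60, SE 0.11, adjusted p 0.0429). The CD4 call of Pik3r1 remained with each library left out, and its CD8 call was lost without any of the 4 CD8 libraries or either STAT3KO CD4 library (adjusted p 0.102 to 0.292) and with the 4 CD8 libraries alone (0.0921). The call of Pik3cd was lost without WT CD4 replicate 2 (adjusted p 0.0813) or STAT3KO CD4 replicate 1 (0.103) or 2 (0.150) and with the 4 CD4 libraries alone (0.0695). The block called 8 of the 29 genes for CD4 and 4 for CD8 T cells, beside 3747 and 2258 of all 12428 genes. Of 9 genes for NF-kB units and their inhibitors, edgeR called 0 in either cell type, 2 in CD4 and 1 in CD8 T cells passed an unadjusted p under 0.05, DESeq2 called 0 in either and the block 2 and 0, with medians of -0.16 and -0.18.

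Of 14 other TNF receptor superfamily genes tested (20 listed), 4 were lower and 1 higher in STAT3KO CD4 T cells, beside 5.08% and 6.54% of all genes. Their median was -0.38, and the block called 6, beside 3747 of all 12428 genes. Tnfrsf23, a decoy receptor, fell from 7.83 and 7.70 to 2.05 and 2.83 CPM (log2 fold change -1.66 with SE 0.28, adjusted edgeR p 0.0100), and Tnfrsf14 (HVEM), Tnfrsf22 and Tnfrsf26 fell as well. Tnfrsf8 (CD30) rose from 5.09 and 4.30 to 10.8 and 12.5 CPM (1.31, SE 0.20, adjusted p 0.00678). These calls were lost for Tnfrsf23 without STAT3KO CD4 replicate 1 (adjusted p 0.0762), for Tnfrsf8 without STAT3KO CD4 replicate 2 (0.0535), for Tnfrsf14 without either STAT3KO CD4 library (0.0909 to 0.0923), and for Tnfrsf22 and Tnfrsf26 without either of these or WT CD4 replicate 2 (0.0758 to 0.150). For CD8 T cells edgeR called 0 of these 14 genes and 1 passed an unadjusted p under 0.05, with a median of -0.23. DESeq2 called 0 and the block 1, beside 845 and 2258 of all 12428 genes. Among the inhibitory receptors of the CD28 family, Btla, which binds HVEM, fell from 1092 and 1483 to 567 and 569 CPM in CD4 T cells (-1.18, SE 0.18, adjusted p 0.00711), a call lost without STAT3KO CD4 replicate 1 (adjusted p 0.0568) or 2 (0.0589), and Ctla4 and Pdcd1 were not called. Of these 3, edgeR called 0 in CD8 T cells and 1 passed an unadjusted p under 0.05. The block called 1 (2258 of all 12428 genes) and DESeq2 called 0 (845 of all genes).

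Genes on a list of other costimulatory and related surface molecules, which includes Cd5 and the TNF family ligand gene Cd40lg, moved in both directions. In CD4 T cells 3 of 11 tested were higher (Klrk1, Cd226 and Slamf1) and 1 lower (Crtam), beside 6.54% and 5.08% of all genes. The median was 0.18, and 9 were called with the block, beside 3747 of all 12428 genes. In CD8 T cells 2 were higher (Klrk1 and Cd226) and 1 lower (Cd6), beside 1.34% and 0.732% of all genes, with a median of 0.06. Klrk1, which encodes the activating receptor NKG2D, rose from 11.7 and 12.2 to 78.3 and 79.2 CPM in CD4 (log2 fold change 2.72 with SE 0.16, adjusted edgeR p 0.000563) and from 244 and 199 to 432 and 335 CPM in CD8 T cells (0.79, SE 0.15, adjusted p 0.0456). The summed NK cell markers were 261 and 262 CPM in WT CD4 and 399 and 474 CPM in STAT3KO CD4 libraries, most of them from Nkg7, which cytotoxic T cells also express. The NK receptor gene Ncr1 reached at most 0.246 CPM, and Klra8 was at 0 in every library. Klrb1c was at 16.1 and 17.7 CPM in WT CD4 and at 14.9 and 18.6 CPM in STAT3KO CD4 libraries. Klri2 was at 1.34 and 1.41 against 1.82 and 2.60 CPM there. The part of NK cells in the Klrk1 result was not tested. Crtam fell from 7.23 and 11.2 to 2.50 and 5.12 CPM in CD4 T cells (-1.27, SE 0.32, adjusted p 0.0430). Cd6, which binds the adhesion molecule ALCAM, fell from 226 and 254 to 149 and 125 CPM in CD8 T cells (-0.81, SE 0.12, adjusted p 0.0257). Klrk1 and Cd226 remained called in CD4 T cells with each library left out. The calls of Slamf1 (without WT CD4 replicate 2 or either STAT3KO CD4 library, adjusted p 0.137 to 0.145) and Crtam (without WT CD4 replicate 2, STAT3KO CD4 replicate 1 or any CD8 library, 0.0537 to 0.189) were lost, as they were with the 4 CD4 libraries alone (0.0607 and 0.102). The CD8 calls of Klrk1 and Cd226 were lost without any of the 8 libraries (0.0621 to 0.299), and that of Cd6 without any CD8 library or either STAT3KO CD4 library (0.0629 to 0.175). With the 4 CD8 libraries alone all 3 were lost (0.0799 to 0.114), those of Klrk1 and Cd226 also on log2(RPKM + 1) (0.0618 and 0.0514) and log2(RPKM + 0.1) (0.0624 and 0.0517), and that of Cd226 with column totals (0.0536).

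**Figure D4:**
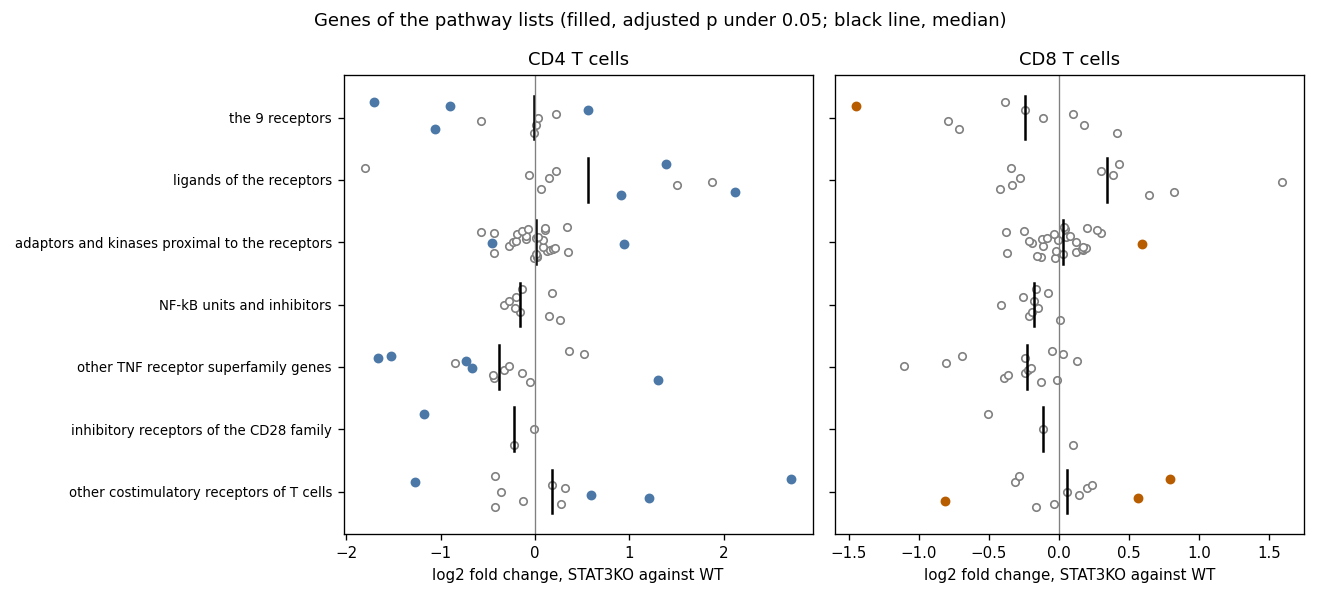
Log2 fold changes of STAT3KO against WT for the genes of each list in CD4 (left) and CD8 T cells (right), with filled points for an adjusted edgeR p under 0.05 and a black line at the median. The ligands have the highest median in CD4 T cells (0.57) and the other TNF receptors the lowest (-0.38).

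Of the TNF receptor genes, 5 lie on chromosome 4, where Tnfrsf4 and Tnfrsf18 are 9732 bases apart. Both STAT3KO CD4 libraries were below WT for Tnfrsf4 and above WT for Tnfrsf18, and neither gene was called. Around the 9 receptor genes, 5 of the 16 nearest other tested genes were called in STAT3KO CD4 T cells, against 11.6% of all genes called in either direction. The block called 8 of the 16 there, beside 3747 of all 12428 genes. For CD8 T cells edgeR called 0 of these 16, against 2.07% of all genes, and 3 passed an unadjusted p under 0.05. DESeq2 called 0 and the block 2, beside 845 and 2258 of all 12428 genes. Tnfrsf1b is flanked by Tnfrsf8 at a distance of 20261 bases and by Vps13d at 17362 bases, and all 3 were higher in STAT3KO CD4 T cells (log2 fold changes 0.56, 1.31 and 0.48, adjusted edgeR p 0.0283, 0.00678 and 0.0228). Espn, 756 bases from Tnfrsf25, fell from 2.54 and 2.36 to 0.650 and 0.594 CPM (-1.97, SE 0.37, adjusted p 0.0148, and -0.55 on log2(RPKM + 1), which understates changes of low genes). Lipa, the nearest tested gene beyond the end of Fas at 164545 bases, was lower as well (-0.77, SE 0.10, adjusted p 0.00387). Tapbpl, 761 bases from Cd27, was higher (0.56, SE 0.13, adjusted p 0.0363), and Cd27 was not called. The call of Lipa remained with each library left out. Those of Espn (without any CD4 library, adjusted p 0.0639 to 0.117), Vps13d (without WT CD4 replicate 2 or either STAT3KO CD4 library, 0.111 to 0.151) and Tapbpl (without these 3, either WT CD8 library or STAT3KO CD8 replicate 2, 0.0505 to 0.190) were lost, the last 2 also with the 4 CD4 libraries alone (0.0772 and 0.0658).

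Over the 8 libraries, the gene with the pattern most like each receptor was found by Pearson's r of log2 CPM among 8757 genes, which describes groups of 2 libraries rather than independent samples. The most alike genes were Tcf12 for Icos (r = 0.996), Tnfsf8 for Tnfrsf4 (0.994), H1f0 for Tnfrsf25 (0.992), Nit2 for Fas (0.991), Ubash3b for Tnfrsf9 (0.989), B4gat1 for Tnfrsf18 (0.988), Cenpq for Cd27 (0.987) and Ddx5 for Cd28 (0.983). For Tnfrsf1b it was its neighbour Tnfrsf8 (0.933). Among the receptors themselves, Icos, Tnfrsf4 and Tnfrsf25 ran together (r between 0.970 and 0.977). Several pairs ran in opposite directions, among them Tnfrsf9 and Tnfrsf18 (r = -0.934), Cd27 and Tnfrsf25 (-0.921), Tnfrsf9 and Tnfrsf4 (-0.906), and Fas and Tnfrsf1b (-0.816).

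The promoters of the TNF receptors called in CD4 T cells are shown because STAT3 is a DNA-binding factor whose motif can be looked for in them. Windows of 250 bases before the annotated start (RefSeq, GRCm38.p6) were found for 7 of the 9 genes, without Cd28 and Icos, and were searched on both strands for TTCNNNGAA (STAT), TGANTCA (AP-1) and GGGNNTTCC (NF-kB). These motifs occur in 7.02%, 6.749% and 4.977% of all 32851 promoter windows of the same length. In the windows below, read 5′ to 3′ on the strand of the gene, capitals mark a match to any of the 3. They stand at chr19:34290409-34290658 (plus strand) for Fas, chr4:145246871-145247120 (minus strand) for Tnfrsf1b and chr4:152115684-152115933 (plus strand) for Tnfrsf25.
Fas: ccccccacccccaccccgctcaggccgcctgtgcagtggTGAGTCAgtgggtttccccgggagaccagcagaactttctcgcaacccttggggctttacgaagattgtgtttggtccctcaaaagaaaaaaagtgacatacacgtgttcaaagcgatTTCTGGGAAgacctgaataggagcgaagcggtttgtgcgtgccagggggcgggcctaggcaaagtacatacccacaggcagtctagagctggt
Tnfrsf1b: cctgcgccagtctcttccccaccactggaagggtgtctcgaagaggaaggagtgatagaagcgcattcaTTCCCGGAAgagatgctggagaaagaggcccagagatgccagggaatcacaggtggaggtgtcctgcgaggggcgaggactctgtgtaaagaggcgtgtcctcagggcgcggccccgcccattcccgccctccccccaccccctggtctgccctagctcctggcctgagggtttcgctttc
Tnfrsf25: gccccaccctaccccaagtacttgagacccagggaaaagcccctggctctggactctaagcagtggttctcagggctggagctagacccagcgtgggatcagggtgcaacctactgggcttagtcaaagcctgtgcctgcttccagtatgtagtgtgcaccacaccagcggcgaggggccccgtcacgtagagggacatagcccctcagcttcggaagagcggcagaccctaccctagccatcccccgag
The Fas window, of a gene that fell, holds a STAT match beginning 93 bases before the start and an AP-1 match at 211 bases. The Tnfrsf1b window, of a gene that rose, holds a STAT match at 181 bases. The Tnfrsf25 window holds none of the 3, and the window of a second annotated start holds a STAT match at 16 bases. A STAT match also stands 99 bases before the start of Tnfrsf18, which was not called, and the windows of Tnfrsf4 and Cd27 hold no match. Tnfrsf9, which was not called either, has no match before its first annotated start, and before a second it has a STAT match at 136 bases, an AP-1 match at 15 bases and the only NF-kB match of these windows at 42 bases. The letters thus occur before genes that rose, fell and did not pass the test, and no binding was measured.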

How the data were processed

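The authors sorted donor CD4 and CD8 T cells from recipient spleens, aligned their reads to mm10 (STAR) and obtained gene counts against RefSeq (HTSeq). The deposited files hold raw counts, and RPKM values that the authors scaled by exon length and by a library size that was not the column total of the counts. Growth and treatment protocols in the labels describe another cell type and were not used.

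Counts of all 8 libraries were fitted together in edgeR 4.0.16 (R 4.3.3) with a mean per group, TMM factors (0.982 to 1.03) and filterByExpr (minimum count 10). The quasi-likelihood test was two-sided, with Benjamini-Hochberg adjustment over 12428 genes and a threshold of 0.05. SEs were derived from the F statistic. P-values measure the spread between 2 pooled libraries a group. At the depth of the libraries, the limit set by a count of 0, taken as 3 counts, equals 0.129 to 0.149 CPM, which covers counting error only. Marker sums are CPM by column total.

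The fit held no replicate block, but libraries of the same number were read as pairs. Their deviations from the group means correlated in all 6 pairs of groups (r between 0.424 and 0.671 over genes), and the file headers number them together, without saying what the number stands for. The replicate number as a block was an alternative, as were DESeq2 1.42.0 (Wald test), the likelihood-ratio test, RLE factors, column totals, other filters, limma 3.58.1 on log2(RPKM + 1) and log2(RPKM + 0.1), the 4 libraries of each comparison alone, and each library left out. The test recovered known changes in simulated data. These held no replicate effect, the same dispersion for all genes and only large changes of well-counted genes. The simulation therefore does not measure how well the test finds smaller changes in these libraries.

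Named genes were the 9 receptors, Stat3, the coreceptors, the called list genes with the highest and lowest fold change (other called list genes were named after their values were seen), the nearest tested gene on each side and the gene most alike among genes whose mean log2 CPM reached 3. Receptors and lists were chosen with earlier results of these data known.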

Additional observations from a re-analysis of the deposited data

Results flagged for a closer look

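Tnfrsf1b (TNFR2) is given here because every STAT3KO library lay above every WT library in CD4 T cells and below every WT library in CD8 T cells. With 2 libraries a group, 28.5% of all genes tested lay above without overlap in CD4 and 24.8% below in CD8 T cells, each taken alone. The difference of the STAT3KO effects, CD8 minus CD4, was -0.81 on the log2 scale (SE 0.18). Within the libraries numbered 1 it was -0.86, and within those numbered 2 it was -0.77. The rule that chose the gene makes both of these negative, so their shared sign adds nothing. The edgeR interaction test gave an unadjusted p of 0.00213 and an adjusted p of 0.240, so the difference did not pass the threshold over all genes, while the fit with the replicate number as a block (adjusted p 0.0150) and DESeq2 (adjusted p 0.00390) called it. Over the alternatives the value lay between -0.97 and -0.65, with adjusted p between 0.00390 and 0.674.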

How the results depend on the processing

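Counts of calls depended on the tool and on single libraries more than directions did. For STAT3KO against WT in CD4 T cells, 1444 genes were called, 3747 with the replicate block and 412 to 1307 with a library left out. The 4 receptor calls there became 0 to 4, with 0 without STAT3KO CD4 replicate 1 and Fas alone without WT CD4 replicate 2 or STAT3KO CD4 replicate 2. In CD8 T cells, 257 genes were called, against 845 by DESeq2, 454 without the filter, 2258 with the replicate block, 815 by the likelihood-ratio test, 37 with the 4 CD8 libraries alone and 7 to 224 with a library left out. The 1 receptor called there, Tnfrsf25, was joined by Icos and Tnfrsf4 under DESeq2 (3) and the replicate block (3) and by Icos without the filter (2), was lost with the 4 CD8 libraries alone (0), and with a library left out 0 to 1 remained. For the interaction, 0 genes became 175 by DESeq2, 44 without the filter, 403 with the replicate block, 137 by the likelihood-ratio test and 13 by limma on log2(RPKM + 1), and 0 with any library left out. The 0 receptor genes called became 2 by DESeq2 and 2 with the replicate block (Tnfrsf1b and Fas) and 1 by the likelihood-ratio test (Fas). For CD8 against CD4, the 2960 genes called in WT became 5232 with the replicate block, 1919 with the 4 WT libraries alone and 1546 to 2598 with a library left out, and the 1555 in STAT3KO became 3689 with the block and 457 to 1554 with a library left out. The block changed no call of a receptor gene beyond those given with the results. The receptor calls numbered 7 in WT with every library left out in turn and 4 to 5 in STAT3KO. DESeq2 and the fit without the filter also called Cd28 (adjusted p 0.0303 and 0.0475) in WT, and DESeq2 called Cd27 (0.0392) in STAT3KO T cells.

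No called receptor changed direction under any alternative, and the following uncalled differences did. Cd27 in CD4 T cells (0.01) was -0.021 with column totals, -0.016 without the filter, on log2(RPKM + 1) and on log2(RPKM + 0.1), -0.0060 with 4 libraries, and -0.059 to 0.050 with a library left out. With a library left out, Cd28 ranged from -0.32 to 0.22 in CD4 and from -0.066 to 0.77 in CD8 T cells, and Tnfrsf9 from -0.13 to 0.17 and from -0.26 to 0.035. The interaction ranged from -0.037 to 0.78 for Cd28, -0.66 to 0.14 for Tnfrsf4, -0.29 to 0.027 for Tnfrsf9 and -0.225 to 0.0067 for Tnfrsf18, and CD8 against CD4 in STAT3KO from -0.77 to 0.041 for Cd28. Of the other genes named, Pdcd1 (-0.01 in CD4 T cells) became 0.0012 under the replicate block and -0.27 to 0.26 with a library left out, and in CD8 T cells Pdcd1 ranged from -0.35 to 0.15 and Ctla4 from -0.25 to 0.38. The cause of these changes was not tested. With 2 libraries a group, the lone library left in an arm was assumed to vary like the others.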

Other observations

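Cd28, Icos and Tnfrsf4 were higher in the library numbered 2 than in the library numbered 1 in all 4 groups, as were 20.04% of the genes tested. For Cd28 the log2 differences between these libraries were 0.40 in WT CD4, 0.57 in STAT3KO CD4, 0.29 in WT CD8 and 0.82 in STAT3KO CD8 T cells. The median absolute difference over all genes tested lay between 0.17 and 0.25. The macrophage gene Csf1r was at 0.558 to 2.51 CPM in the 4 libraries numbered 1 and at 11.8 to 18.7 CPM in the 4 numbered 2, and its part in the difference of Cd28, Icos and Tnfrsf4 was not tested.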
